A study of Mus musculus with 2 samples.

Results

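The KLF transcription factors are a family of DNA-binding proteins, named after the Krüppel gene of the fruit fly, that share zinc fingers near the carboxyl end and bind GC-rich and CACCC sequences. They are commonly sorted by the cofactors they recruit. The activating branch, with *Klf2*, *Klf4*, *Klf6* and *Klf7*, mainly switches genes on, *Klf3* and *Klf12* recruit the corepressor CtBP, and the Sin3-binding branch, with *Klf9*, *Klf10*, *Klf11* and *Klf13*, recruits the Sin3 corepressor complex. Several members are early response genes that signals switch on within minutes, and some are known to restrain cell division or to guide blood lineages.

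The 10 genes named above were chosen by symbol from the 24421 genes listed for each library, and all 10 were found and had counts in both libraries. RNA-seq was performed on hematopoietic stem cells (HSCs), which were sorted from the LSK fraction of the marrow (Sca-1+ and c-Kit+ without lineage markers) as CD150+CD48-CD34-Flt3-. Donor marrow on a C57BL/6 background carried one copy of CreERT, a recombinase that is active only in the presence of tamoxifen, with either Ezh2 +/+ (WT) or a floxed *Ezh2* that is Ezh2 Δ/Δ after deletion (labelled Ezh2 KO). *Ezh2* encodes the catalytic subunit of the Polycomb complex that writes H3K27me3. Marrow of both genotypes was engrafted in lethally irradiated recipients, both received 100 µl of tamoxifen at 10 mg/ml over 5 days, and HSCs were taken 1 month after the injections. There was 1 library per group, so no difference reported here has a replicate check, and ages and numbers of mice are not given in the sources used here.

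Gene counts totalled 5763118 in WT and 4157280 in the library with the label Ezh2 KO, and 3 counts, taken as the smallest level that could be shown, corresponded to 0.521 and 0.722 CPM (counts scaled to a common library total). *Ezh2* itself had 166 and 129 counts, a log2 ratio of 0.08 (95% interval -0.27 to 0.42), so the deletion did not show in gene-level counts, and this library is called KO-labelled after its label. The libraries also differed in *Xist*, with 801 counts in WT and 4 in the other, so that the sex of the cells and the genotype cannot be told apart. All 12 HSC markers were detected in both libraries, with summed levels of 4825 and 5078 CPM. By at least 1.5-fold, 3 of them were lower (*Slamf1*, *Fgd5* and *Ctnnal1*) and 0 higher. The 3 markers that the sort excludes (*Cd34*, *Flt3* and *Cd48*) went from 185 to 236 CPM, and *Flt3* was higher, at a log2 ratio of 0.95. Marker lists of other cells differed in both directions. Over all genes with a mean of at least 1 CPM, 7.65% were higher and 7.36% lower by at least 1.5-fold. The 7 eosinophil markers summed to 2.08 CPM in WT, where *Prg2*, *Epx*, *Prg3* and *Ear1* had 0 counts, and to 772 CPM in the KO-labelled library, while *Ccr3* and *Siglecf* of that list had 5 and 4 counts each. The 13 neutrophil markers went from 2103 to 3938 CPM, with 8 higher and 1 lower by at least 1.5-fold, and the 10 erythroid markers from 115 to 251 CPM, with 6 higher. B lymphoid markers went from 48.4 to 101 CPM, with 5 of 6 tested higher. *Pax5*, at 0 and 1 counts, was too low to be tested. The 8 megakaryocyte markers went the other way, from 593 to 321 CPM, with 4 lower. T and NK markers summed to 51.9 and 47.6 CPM, but single genes differed in both directions. Of 5 tested, 2 were higher (*Il2rb*, 0 and 34 counts, and *Cd3g*, 0 and 9) and 1 lower (*Klrb1c*, 116 and 14). The part of these cells in the KLF values was not tested, and in bulk RNA a change in the number of cells of a type cannot be told apart from a change in RNA per cell.

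Ratios are given as the log2 of the KO-labelled library over WT, after division by size factors and addition of 1 normalised count. The interval after a ratio is an exact 95% interval that covers counting error only, and differences between animals or libraries do not enter it. Reads copied by PCR are not independent molecules, so it may be too narrow even for counting error. A gene was called when the ratio passed a stated fold and this interval excluded no difference. Such a call describes these libraries and not the genotypes.

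Promoter sequences are given first, to show what members that differed alike share in letters. RefSeq promoter windows (GRCm38.p6) were matched for 9 of the 10 members, all except *Klf10*. Shown 5′ to 3′ are the bases upstream of the annotated starts of *Klf2* and *Klf6*, both lower in the KO-labelled library, and of *Klf11* and *Klf13*, both higher. Capitals mark the GC box, with the letters GGGCGG, the CCAAT box and, in *Klf2*, a site that matches the MEF2 consensus, each searched on both strands. *Klf2* lies on the plus strand at chr8:72318812-72319032, *Klf6* on the plus strand at chr13:5861239-5861481, *Klf11* on the plus strand at chr12:24651121-24651273, and *Klf13* on the minus strand at chr7:63938916-63939165.
Klf2: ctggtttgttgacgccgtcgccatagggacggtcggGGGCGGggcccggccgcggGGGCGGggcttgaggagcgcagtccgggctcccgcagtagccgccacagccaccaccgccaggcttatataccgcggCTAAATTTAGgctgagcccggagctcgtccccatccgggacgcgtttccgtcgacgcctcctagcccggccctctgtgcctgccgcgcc
Klf6: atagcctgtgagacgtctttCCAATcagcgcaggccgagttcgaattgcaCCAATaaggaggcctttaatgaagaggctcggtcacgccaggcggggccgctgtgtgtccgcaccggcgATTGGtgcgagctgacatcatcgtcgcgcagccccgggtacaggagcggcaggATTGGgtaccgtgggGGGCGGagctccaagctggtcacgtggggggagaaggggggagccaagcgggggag
Klf11: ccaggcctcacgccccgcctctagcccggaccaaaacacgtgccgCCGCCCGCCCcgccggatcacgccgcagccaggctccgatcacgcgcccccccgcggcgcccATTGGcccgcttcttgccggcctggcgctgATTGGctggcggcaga
Klf13: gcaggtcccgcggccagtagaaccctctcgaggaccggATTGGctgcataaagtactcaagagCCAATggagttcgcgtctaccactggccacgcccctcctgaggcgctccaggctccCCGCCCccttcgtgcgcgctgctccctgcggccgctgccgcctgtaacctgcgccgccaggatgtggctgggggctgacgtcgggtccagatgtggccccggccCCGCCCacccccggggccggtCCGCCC

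Over the 250 bases upstream of each RefSeq start, a GC box was present in 7 of the 9 KLF windows and in 32.7% of all 32851 windows, and the CACCC box, the sequence that KLF proteins themselves bind, in 6 of 9 and 52.0%. The CCAAT box was found in 4 of 9, namely *Klf6*, *Klf9*, *Klf11* and *Klf13*, and in 33.8% of all windows, so it was shared by genes that were lower, alike and higher. The MEF2 site was found in *Klf2* alone among the 9 windows and in 0.508% of all windows. None of the 9 windows held a cyclic AMP response element (TGACGTCA, 1.55% of all windows), an AP-1 site (TGAGTCA or TGACTCA, 4.46%) or a CArG box, the site of serum response factor (1.47%). The E-box (CACGTG) was found in 3 of 9, namely *Klf4*, *Klf6* and *Klf11*, and in 6.02% of all windows. A TATA box (TATAAA) was found in 1 of 9, *Klf12*, and in 12.4% of all windows. A CACCC box can overlap a GC box on the same bases. The GC content of the KLF windows ran from 59.2% in *Klf7* to 78.4% in *Klf3*, above the median of 52.4% over all windows, except for *Klf12* at 48.0%. The windows of *Klf7* and *Klf12* lie inside the spans of their genes, upstream of internal starts. These matches describe the letters in the windows only.

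Levels were compared between genes as normalised counts per kb of exon. In WT the order was *Klf6* (254), *Klf10* (235), *Klf2* (196), *Klf9* (92.0), *Klf11* (69.8), *Klf13* (58.2), *Klf3* (22.2), *Klf12* (14.0), *Klf4* (6.75) and *Klf7* (4.12). The counting intervals of *Klf6* and *Klf10* overlapped, as did those of *Klf11* and *Klf13* and those of *Klf4* and *Klf7*. In the KO-labelled library, *Klf10* came first at 343 normalised counts per kb (324 to 363), above *Klf6* at 206 (191 to 221) without overlap. *Klf2* came next in both libraries, at 163 here, and *Klf11* (105), *Klf13* (90.7) and *Klf9* (86.6) followed. The intervals of these 3 genes overlapped each other. *Klf3* (22.6) came next, followed by *Klf12* (7.34), *Klf7* (5.30) and *Klf4* (4.59), whose intervals also overlapped each other. The sorted HSCs thus held most KLF RNA per kb as *Klf6*, *Klf10* and *Klf2* in both libraries, and *Klf4*, known as a reprogramming factor and as a driver of monocyte maturation, was among the lowest.

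**Figure D1:**
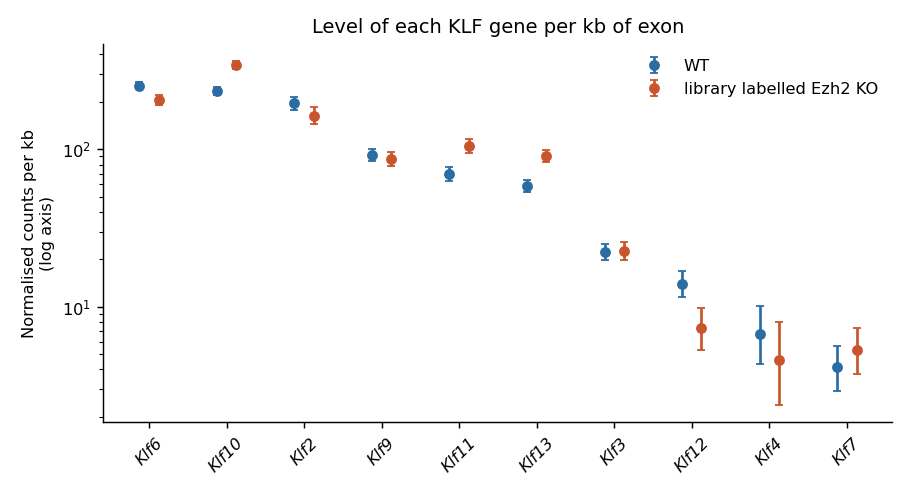
Levels of the 10 KLF genes per kb of exon (log axis, normalised counts per kb) in WT and in the KO-labelled library, 1 library each, with exact 95% Poisson intervals for counting error. *Klf6*, *Klf10* and *Klf2* are the highest in both, and *Klf10* exceeds *Klf6* in the KO-labelled library (343 against 206).

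The comparison of the libraries asked how each KLF gene differed between WT HSCs and HSCs labelled Ezh2 KO. No member passed 2-fold in either direction, where 4.09% of 12588 genes with a mean of at least 1 CPM were called higher and 3.27% lower. At 1.5-fold, 2 of 10 members were higher (*Klf11* and *Klf13*) and 1 was lower (*Klf12*), against 7.65% higher and 7.36% lower among all genes tested. The call of *Klf11* was lost with a pseudocount of 5 and after WT was thinned to the depth of the other library, which left 1 higher member. Among the 9670 genes of at least 10 CPM, 4.58% were higher and 5.86% lower at 1.5-fold, and all 3 called members belong to these. The median log2 ratio of the 10 members was -0.03, beside -0.003 over all genes tested, with 5 members above 0 and 5 below. As a group the family thus sat at the middle of the distribution, while single members lay on both sides of it.

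**Figure D2:**
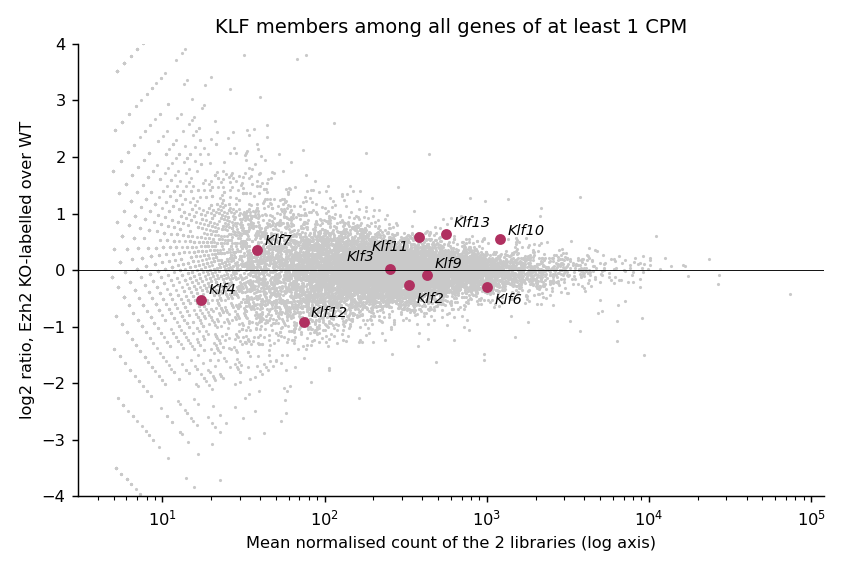
Log2 ratio (KO-labelled library over WT) against the mean normalised count of the 2 libraries (log axis) for all 12588 genes of at least 1 CPM in grey, with the 10 KLF genes in red. *Klf10*, *Klf11* and *Klf13* lie above most well-expressed genes, and 50 genes beyond the axis limits of -4 and 4 are not drawn.

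Of the 4 members in the Sin3-binding branch, 3 were higher in the KO-labelled library. *Klf10* (chromosome 15, 38291463 to 38300706 in mm10), first known as the TGF-beta-inducible early gene, had 1142 counts in WT and 1230 in the KO-labelled library, which are 980.0 and 1433 normalised counts. Its log2 ratio was 0.55 (95% interval 0.43 to 0.67), a 1.46-fold difference just under the 1.5-fold limit. *Klf11* (chromosome 12, 24651274 to 24662789), a close relative that TGF-beta also induces, had 353 and 392 counts, or 303 and 457 normalised counts, a log2 ratio of 0.59 (0.38 to 0.80). It was 1.51-fold higher, just past that limit. *Klf13* (chromosome 7, 63886351 to 63938915), which in T lymphocytes controls the chemokine gene *Ccl5*, had 511 and 586 counts, or 439 and 683 normalised counts. Its log2 ratio of 0.64 (0.47 to 0.81) was the highest of the 10. *Klf9* (chromosome 19, 23141226 to 23168134), a target of glucocorticoid and thyroid hormone receptors, had 516 and 358 counts, or 443 and 417 normalised counts, a log2 ratio of -0.09 (-0.28 to 0.11). Of these 4 members, *Klf9* was thus the one that was not higher.

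*Klf10*, *Klf11* and *Klf13*, the 3 members with the highest ratios, were set against all well-expressed genes. They were picked by those same ratios, so their high places are a description and not a test. Of the genes whose mean reached 100 normalised counts (8083 in all), the log2 ratio of *Klf10* exceeded that of 96.2%, the ratio of *Klf11* 97.0% and the ratio of *Klf13* 97.6%. The ratio of *Klf9*, of the same branch, exceeded that of 39.2%. The 5th and 95th percentiles of the 8083 genes were -0.55 and 0.50. The proportions of the 3 genes to each other differed little between the libraries. The count of *Klf10* was 3.24 times that of *Klf11* in WT and 3.14 times in the KO-labelled library, a log2 change of -0.04 (-0.28 to 0.19), and *Klf11* over *Klf13* changed by -0.05 (-0.32 to 0.22). *Klf10* over *Klf9* changed by 0.63 (0.41 to 0.86). These ratios use no size factor, and the pairs were chosen after the values were seen.

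Among the activating members, the well-expressed genes were slightly lower. *Klf6* (chromosome 13, 5861482 to 5870394), a broadly expressed factor that injury and growth signals induce, had 1300 counts in WT and 775 in the KO-labelled library, or 1116 and 903 normalised counts. Its log2 ratio was -0.30 (-0.44 to -0.18). *Klf2* (chromosome 8, 72319033 to 72321656), which holds T lymphocytes in quiescence and is induced by flow in endothelium, had 422 and 259 counts, or 362 and 302 normalised counts, a log2 ratio of -0.26 (-0.49 to -0.04). Both intervals lay below 0, at 1.24-fold and 1.20-fold lower, and neither gene passed 1.5-fold. The ratio of *Klf2* to *Klf6* was 0.325 in WT and 0.334 in the other library, which is a log2 change of 0.04 (-0.22 to 0.30).

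The other activating members were rare. *Klf4* (chromosome 4, 55527143 to 55532466) had 24 and 12 counts, or 20.6 and 14.0 normalised counts, and its log2 ratio of -0.53 had an interval from -1.69 to 0.50. *Klf7* (chromosome 1, 64029447 to 64122282), best known from axon growth in neurons, had 39 and 37 counts, or 33.5 and 43.1 normalised counts, with a log2 ratio of 0.36 (-0.32 to 1.05). At this depth no difference was detectable for either, and a 2-fold difference lies within both intervals. *Klf7* shares 3196 of 8131 exon bases with *Gm26649* on the opposite strand, and since the strand setting of the counting was not stated, its counts are uncertain.

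Among the 10 members, the CtBP-binding branch held the largest single difference. *Klf12* (chromosome 14, 99870632 to 100284679), first described as a repressor of the AP-2 alpha gene, had 114 counts in WT and 44 in the KO-labelled library, or 97.8 and 51.3 normalised counts. It was 1.89-fold lower, a log2 ratio of -0.92 (-1.47 to -0.42). *Klf3* (chromosome 5, 64803388 to 64832901), a repressor that acts in B lymphocytes and red cell precursors, had 291 and 218 counts, or 249.7 and 254 normalised counts, with a log2 ratio of 0.02 (-0.24 to 0.28). *Klf12* made up 0.392 of the count of *Klf3* in WT and 0.202 in the other, which is a log2 change of -0.96 (-1.52 to -0.39) that needs no scaling, for a pair also chosen after its values were seen. For *Klf3*, 404 exon bases are shared with *Gm20033* on the opposite strand. When a CV of 0.2 between libraries was assumed in the exact test of edgeR, none of the 10 members was called, and the lowest adjusted p was that of *Klf12*, at 0.837.

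**Figure D3:**
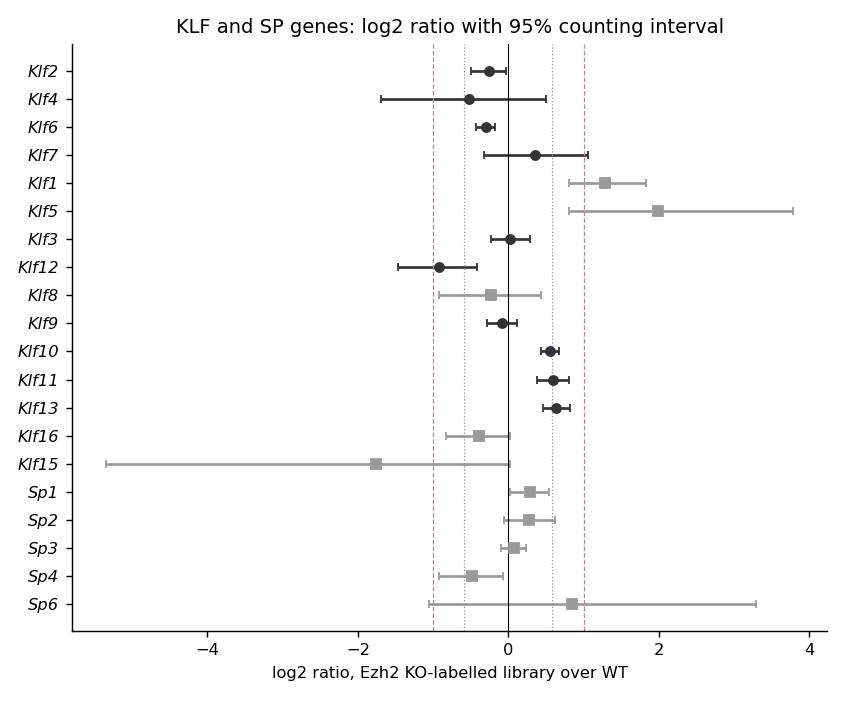
Log2 ratio (KO-labelled library over WT) of the 10 KLF members (dark circles) and of the other KLF and SP genes of at least 1 CPM (grey squares), with exact 95% counting intervals. Dotted lines mark 1.5-fold and dashed lines 2-fold. *Klf10*, *Klf11* and *Klf13* lie between 0.55 and 0.64 and *Klf12* at -0.92.

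The make-up of the KLF counts was then described as each gene's share of the counts of the 10 members, 4712 in WT and 3911 in the KO-labelled library. These shares were not corrected for gene length. The Sin3-binding branch made up 53.5% (95% Wilson interval 52.1% to 54.9%) in WT and 65.6% (64.1% to 67.1%) in the other library. The activating branch went from 37.9% (36.5% to 39.3%) to 27.7% (26.3% to 29.1%), and the CtBP-binding pair from 8.60% to 6.70%. Among single genes, the share of *Klf6* went from 27.6% (26.3% to 28.9%) to 19.8% (18.6% to 21.1%) and that of *Klf10* from 24.2% (23.0% to 25.5%) to 31.4% (30.0% to 32.9%), so that their order turned. *Klf13* went from 10.8% to 15.0%, *Klf11* from 7.49% to 10.0% and *Klf2* from 8.96% to 6.62%. The share of *Klf9*, also in the Sin3-binding branch, went down, from 11.0% to 9.15%. Summed over the 10 genes, normalised counts were 4044 in WT and 4558 in the KO-labelled library, a ratio of 1.13.

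**Figure D4:**
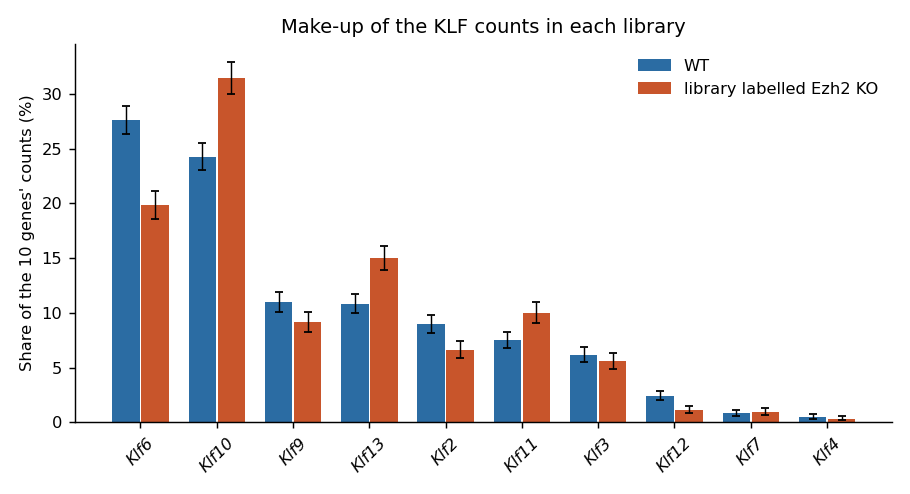
Share of each gene in the counts of the 10 KLF members (%) in WT and in the KO-labelled library, 1 library each, with 95% Wilson intervals for counting error. *Klf6* is the largest part in WT (27.6%) and *Klf10* in the KO-labelled library (31.4%).

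The rest of the family was examined next. Of the 7 other KLF genes, 5 were measured at a mean of at least 1 CPM, and *Klf14* and *Klf17* had 0 counts in both libraries. *Klf1*, the master regulator of red cell genes, had 51 counts in WT and 93 in the KO-labelled library, or 43.8 and 108 normalised counts, a log2 ratio of 1.29 (0.80 to 1.83). *Klf5*, known from intestinal epithelium and neutrophil production, had 6 and 20 counts, a log2 ratio of 1.98 (0.81 to 3.78). Both were called at 2-fold, where 4.09% of all genes tested were higher. Of the markers, 6 of 10 erythroid and 8 of 13 neutrophil genes were higher by at least 1.5-fold. The erythroid genes *Gata1* (0.07) and *Alas2* (-0.10) were not called, and the neutrophil gene *Elane* was lower (-0.76). *Klf8* (51 and 32 counts), *Klf16* (134 and 75) and *Klf15* (12 and 2) had log2 ratios of -0.23, -0.39 and -1.76, and their intervals included 0. *Klf1* and *Klf5* are sorted into the activating branch, *Klf8* into the CtBP-binding and *Klf16* into the Sin3-binding branch. The directions seen among the 10 members thus did not hold for all genes of a branch. The SP factors, the nearest relatives of the family, bind the same GC boxes. They gave no call at 1.5-fold among 5 genes tested, where 7.65% of all genes tested were higher and 7.36% lower. *Sp1* had 225 and 274 normalised counts (log2 ratio 0.28), *Sp2* 138 and 168 (0.28), *Sp3* 563 and 591 (0.07) and *Sp4* 119 and 85.1 (-0.48). *Sp6* had 4 and 6 counts, *Sp5* 0 and 5, and *Sp7*, *Sp8* and *Sp9* were at 0 in both.

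KLF proteins act through cofactors. Of 14 corepressors and coactivators, 0 were called at 1.5-fold in either direction. Over all genes tested, 7.65% were higher and 7.36% lower, and a list this short can hold 0 calls at that share. The log2 ratios of the 14 genes ran from -0.36 to 0.34 with a median of -0.07. *Ctbp1*, the partner of *Klf3* and *Klf12*, had 1858 and 1450 normalised counts (-0.36), *Sin3a* 251 and 265 (0.07), and *Sin3b* 880 and 825 (-0.09). *Rbbp7*, the most abundant of the list and a histone-binding subunit of the Sin3 complex, had 2499 and 2439 (-0.04). Of 5 ubiquitin ligases that act on KLF proteins, 0 were called, also a count near that share. *Btrc*, the most abundant, had a log2 ratio of -0.50 (-0.74 to -0.26).

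Pathways upstream of the family gave few calls at 1.5-fold, where 7.65% of all genes tested were higher and 7.36% lower. Lists this short can hold 0 or 1 calls at that share. The kinase ERK5 and the MEF2 factors drive *Klf2* and *Klf4* in other cell types, and of 7 genes of that pathway 0 were called. *Mef2c*, the most abundant, had 1182 and 942 normalised counts (log2 ratio -0.33, interval -0.45 to -0.20). *Mapk7*, which encodes ERK5, had 181 and 134 (-0.43, -0.77 to -0.10). *Map2k5* went the other way, with 335 and 445 (0.41, 0.20 to 0.62). Of the 7 genes, 3 had ratios above 0 and 4 below. TGF-beta induces *Klf10* and *Klf11*, and of 7 genes of that pathway 0 were called. *Smad4*, the most abundant, had 837 and 806 normalised counts (-0.05), the receptor gene *Tgfbr2* 566 and 679 (0.26) and the ligand gene *Tgfb1* 420.5 and 289 (-0.54). Of 9 SRF, ternary complex and CREB factor genes, 1 was higher at 1.5-fold, namely *Crem* with 30 and 37 counts. *Elk3*, the most abundant, had a log2 ratio of 0.55 (0.39 to 0.72) and *Srf* one of -0.32 (-0.60 to -0.05).

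Early response genes that are not KLF members showed a larger difference. Of 18 such genes, 16 were tested, and 14 were lower and 0 higher at 1.5-fold, with a median log2 ratio of -0.91, where 7.36% of all genes tested were lower and 7.65% higher. *Junb*, an AP-1 subunit, was at 8355 normalised counts in WT against 4449 in the other library (-0.91), and *Nr4a1*, an orphan nuclear receptor, 1417 and 502 (-1.49). *Zfp36*, which destabilises messenger RNA, had 11755 and 6498 (-0.86). *Klf2* and *Klf6*, often grouped with these genes, had log2 ratios of -0.26 and -0.30, and *Klf10* one of 0.55. The part of the early response in the KLF values was not tested.

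Genes reported as KLF targets in other cell types showed no common direction. Of 14 such genes, 11 were tested, with 2 higher and 1 lower at 1.5-fold and a median log2 ratio of -0.07. Over all genes tested, 7.65% were higher and 7.36% lower. *Ccl5*, the target of *Klf13*, had 11 and 21 counts (1.29, 0.26 to 2.57), and *Thbd*, a target of *Klf2* in endothelium, 55 and 23 (-0.79, -1.59 to -0.09). *S1pr1*, which *Klf2* controls in T lymphocytes, had 271 and 318 normalised counts (0.23, -0.01 to 0.47), and *Cdkn1a*, the cell cycle inhibitor p21, 78.1 and 69.9 (-0.16). *Eng*, the most abundant target, had a log2 ratio of -0.11.

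**Figure D5:**
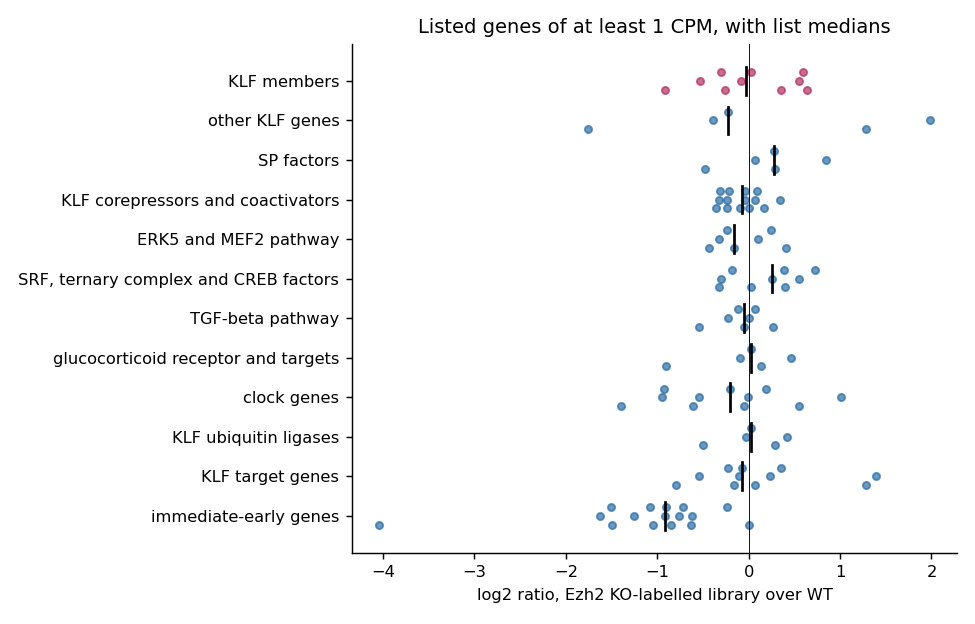
Log2 ratios (KO-labelled library over WT) of the listed genes of at least 1 CPM, 1 point a gene, with the median of each list as a black line. The KLF members (red) spread from -0.92 to 0.64 around a median of -0.03, and the early response genes have a median of -0.91.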

How the data were processed

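The deposited values are raw counts per gene symbol, 1 file per library, as the authors left them before any scaling. By the study's methods and the labels, single reads were aligned to mm10 with TopHat2 2.0.13 and Bowtie2 2.1.0, and StringTie was named for counting. The 5 closing entries of each file, for reads given to no gene, carry names that htseq-count uses and were left out, so counter and strand setting are uncertain. They held 56.1% of all entries in WT and 56.9% in the other library.

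Each library was scaled by a median-of-ratios size factor (DESeq2 1.42.0, R 4.3.3), 1.17 for WT and 0.858 for the KO-labelled library, and log2 ratios used a pseudocount of 1. With 1 library per group no test of edgeR or DESeq2 can estimate a spread, and none was used as the main result. Genes with a mean of at least 1 CPM were compared by fold and by exact Clopper-Pearson intervals. Positions and exon lengths came from GENCODE M21 (GRCm38, the assembly of mm10). Scripts ran in Python 3.11.15 with scipy 1.17.1 and were tested on simulated data.

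The members and gene lists were chosen with earlier results of these data known. Named genes are all KLF and SP genes, and for each other pathway list the most abundant gene and those called at 1.5-fold whose mean reached 50 normalised counts. *Ctbp1*, *Sin3a*, *Sin3b*, *Mapk7*, *Map2k5*, *Tgfbr2*, *Tgfb1*, *Srf*, *Crem*, *Ccl5*, *Thbd*, *S1pr1*, *Cdkn1a*, *Arntl* and *Nr3c1* fall outside this rule. Their values were known when they were chosen, and not every gene under the rule is named. One result among the KLF target genes is not reported here. Alternatives were other scalings, pseudocounts, filters and lengths, thinning of WT, and the exact test of edgeR 4.0.16 with an assumed CV.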

Additional observations from a re-analysis of the deposited data

Results flagged for a closer look

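Reads with several alignments, which enter no gene count and no KLF value, made up 12.3% of all entries in the KO-labelled library and 10.7% in the control library (WT), which is why this share is given here. With 1 library per group no sample can be compared with others of its group.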

How the results depend on the processing

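No paired analysis was possible because with 1 library a group there are no numbered replicates to pair. All 50 alternative log2 ratios of the 10 members, under TMM or total-count scaling, pseudocounts of 0.5 and 5 and thinning of WT, stayed within the counting intervals, from -0.93 to -0.77 for *Klf12* and from 0.55 to 0.58 for *Klf10*. Calls near a limit were less stable. With 2-fold replaced by 1.5-fold, 2 members were higher and 1 lower in place of 0 and 0. At 1.5-fold, *Klf11* was lost with a pseudocount of 5 and after thinning, leaving 1 higher member in each case. With an assumed CV of 0.2 or 0.4 (edgeR exact test, adjusted p below 0.05), 0 members were higher and 0 lower, where 82 and 54 of all genes, and 12 and 6, were called. Ranked by the longest transcript, 5 in place of 3 members had the same rank in both libraries, and *Klf10* came first in both. Among the KLF and pathway lists, a minimum of 10 CPM turned the sign of the median for the other KLF genes (-0.23 to 0.45) and for KLF targets (-0.07 to 0.00082). With genes of at least 10 CPM the marker medians became 10.19 for eosinophil (7.09 before), 0.31 for B lymphoid (4.0), -1.09 for T and NK (0.35) and -0.10 for erythroid genes (0.97). The T and NK median was -0.12 without a filter. The B lymphoid median was 2.59 with a pseudocount of 5 and 2.77 without a filter. The minimum leaves fewer genes, and other causes of these shifts were not tested. Depth limits *Klf4* and *Klf7*, with at most 39 counts in a library.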

Other observations

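Clock genes, which control several KLF genes in other tissues, differed in both directions. Of 11 clock genes, 4 were lower and 1 was higher at 1.5-fold, against 7.36% and 7.65% of all genes tested. *Clock*, an activator of the loop, had 116 counts in WT and 32 in the KO-labelled library, a log2 ratio of -1.39 (-2.03 to -0.84). The repressor genes *Per1* (-0.61), *Per2* (-0.95) and *Cry1* (-0.93) were lower too. *Per3* had 49.8 and 101 normalised counts, a log2 ratio of 1.01 (0.53 to 1.53). *Arntl*, not called at 1.5-fold, had 108 and 117 counts, a log2 ratio of 0.55 (0.17 to 0.95). Of the 11 genes, 3 had ratios above 0 and 8 below. *Nr1d2*, the most abundant of the list, had a log2 ratio of -0.05. The time of day at which the marrow was taken is not given in the sources used here.

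Glucocorticoid receptor targets, among which *Klf9* is counted in other tissues, also parted. *Sgk1*, a kinase gene, had 161 and 63 counts (-0.90, -1.36 to -0.48). It was the one of 5 listed genes called at 1.5-fold, where 7.36% of all genes tested were lower and 7.65% higher. *Tsc22d3*, the most abundant, had 1267 and 1751 normalised counts (0.47, 0.36 to 0.57). The receptor gene *Nr3c1* had 644 and 656. No cause of these differences was tested.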
